A study of Bos taurus with 15 samples.

Results

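Transcripts of heat shock proteins and of other proteins that help proteins to fold were followed through 4 phases of the bovine endometrium. The members were the array probes whose text in the scanner files held, in any letter case, heat shock, DnaJ, chaperonin, protein disulfide isomerase, calreticulin, calnexin, peptidylprolyl isomerase or FK506 binding protein. Of the 15208 probes other than controls, 75 carried such text. Of these, 70 probes, for 66 gene names, gave a signal that the scanner software called well above background on 3 or more of the 15 arrays, and they were tested with the 13164 probes that met this limit. The other 5, for DNAJB13, HSPB3, HSPB9, CALR3 and 1 probe of MTOR (matched through its older name, which holds FK506 binding protein), were not tested.

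The tissue was caruncular endometrium of Japanese Black cows, the lining over the sites where the placenta attaches. Cyclic cows were sampled on day 15 (NP15, 4 arrays) and day 18 (NP18, 4 arrays), and pregnant cows on day 15 (P15, 3 arrays) and day 18 (P18, 4 arrays) after artificial insemination, with the day of insemination counted as day 1. No treatment is named for these cows, whose age is not given, and a cow counted as pregnant when trophoblast, the outer tissue of the conceptus, was found in the uterus by eye. Each array held 1 sample, and the design text speaks of 4 animals for each day and state, so 1 P15 animal was not analysed here. The samples were pieces of whole tissue, in which fewer cells of a type and less RNA per cell cannot be told apart.

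Molecular chaperones hold unfolded proteins until they reach their shape. HSP70 proteins do so in cycles of ATP use that DnaJ proteins start, HSP90 finishes client proteins such as steroid receptors, and the ring-shaped TRiC/CCT complex folds actin and tubulin. In the endoplasmic reticulum (ER), where secreted and membrane proteins are made, HSPA5, calnexin and calreticulin bind new chains, protein disulfide isomerases join cysteines, and prolyl isomerases of the cyclophilin and FK506 binding (FKBP) families turn proline bonds. An endometrium that prepares for attachment secretes much protein into the uterine lumen and rebuilds its collagen matrix, work that passes through these ER proteins.

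The array measures each transcript with 60-base probes. The probes below are those of some members described in the results, and each is free of stop codons in at least 1 sense frame. Probes without such a frame or with the polyadenylation hexamer AATAAA were not printed, among them those of FKBP10, DNAJC13 and HSPE1. No base is capitalised, since no motif within them was at issue.
PDIA4 (ABR1451): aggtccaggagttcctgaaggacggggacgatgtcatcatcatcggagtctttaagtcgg
HSPA5 (ABR1448): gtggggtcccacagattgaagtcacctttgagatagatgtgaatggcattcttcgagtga
PDIA2 (A_73_100970): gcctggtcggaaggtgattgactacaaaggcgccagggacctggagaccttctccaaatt
DNAJC19 (A_73_100809): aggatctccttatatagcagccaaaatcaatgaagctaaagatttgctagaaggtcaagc
HSPA1A (ABR1156): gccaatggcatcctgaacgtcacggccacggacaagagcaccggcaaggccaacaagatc

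Among the 75 member probes, 14 had no open sense frame (18.7%, against 20.3% of all probes), and 9 held the polyadenylation hexamer AATAAA on the strand printed (12%, against 11.3%). No pair of member probes shared a run of more than 12 bases, so no probe was a copy of another. The members were 21 probes for DnaJ proteins, 9 for HSP70, 8 for cyclophilins, 7 for FKBP proteins, 6 each for protein disulfide isomerases and TRiC/CCT, 5 for small heat shock proteins, 3 for calreticulin or calnexin, and 2 each for HSP90, for HSP60 and HSP10, and for proteins that bind heat shock factors. The 4 others were AHSA1, an HSP90 co-factor, SERPINH1, the collagen chaperone HSP47, and MTOR. Genes of the field with no member probe were CCT3, CCT6A, TCP1, DNAJB9, FKBP5, HSF1, HSF2, HSP90B1, HSPD1 itself, HYOU1, P4HB and PDIA3.

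Values below are signals, that is, processed intensities divided by the median of their array, and changes are differences of mean log2 signals with their standard error. A probe is said to have risen or fallen when limma's test, adjusted by the Benjamini-Hochberg method over all probes tested, gave p below 0.05 and the change was over 2-fold. Of the probes on an array, 65.6% to 88.3% stood well above background, with the lowest shares in P18. No scan day held more than 1 group (NP15 was scanned on 3 days, each other group on 1), so scan day and group cannot be told apart. When scan day entered limma as a random block, 0 members passed in each of the 5 comparisons, against 0 to 10 without it. Of all probes, 0% to 0.41% then passed, against 0.798% to 11.9% without it. Limma's unadjusted p was below 0.05 for 2 to 14 members, against 9 to 30 without it. For all 13164 probes these counts were 692 to 1732, against 1956 to 4286. Only NP15 spanned several scan days, so the correlation within a day (0.336) came from that group alone. In the other groups block and group coincide, so a call lost under this block, here or below, cannot show a scan day effect. Markers of the trophoblast (17 probes, summed signal) stood at 0.618 to 2.81 in the arrays of the other groups and at 1.49, 162, 103 and 765 in P18 replicates 1 to 4, and 13 of the 17 probes were not well above background on any NP18 array and 4 on any P18 array. The sum of P18 replicate 1 thus lay within the range of cyclic cows, but TKDP4, a trophoblast Kunitz domain protein of this list, was well above background there at 0.271, against at most 0.0849 in any other group and 45.0 to 307 in P18 replicates 2 to 4. The 6 epithelial and 7 stromal marker probes were each well above background in every group, and 0 of the 6 epithelial and 1 of 5 endothelial probes (lower) were called on day 18. A smooth muscle list (3 probes) summed to 35.4 to 166 in NP18 and 9.36 to 34.4 in P18, with 2 of 3 probes lower by the test. A leukocyte list (14 probes) summed to 23.0 to 50.6 in NP18 and 29.3 to 264 in P18, with 1 of 12 tested probes higher. The leukocyte sum of 264 was that of P18 replicate 3, against 29.3, 35.0 and 62.3 in the others of P18. The GZMB probes of this list reached 117 and 125 in P18. The part of these marker lists in the day 18 results was not tested.

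On day 15, pregnant and cyclic cows differed in 1 member. DNAJC13, a DnaJ protein of endosomes that works with HSPA8, rose in pregnancy. Its signal was 0.529, 0.667, 0.632 and 0.704 in NP15 and 1.59, 1.64 and 1.71 in P15. The groups did not overlap, and the 3 pregnant cows lay close together. The change was 1.39 on the log2 scale (SE 0.20, limma adjusted p = 0.019). It kept a log2 change of 1.30 to 1.44 when 1 array was left out, but without P15 replicate 1, 2 or 3 the adjusted p missed the threshold (highest 0.075). On day 18, DNAJC13 was at 0.988 to 1.36 in NP18 and 1.17 to 1.76 in P18, where it was not called and the groups overlapped.

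The 1 member called is 1.43% of the 70, and 0.798% of all probes tested were called in this comparison, 0.349% as higher and 0.448% as lower. The median change of the members was -0.06 and that of all probes was -0.06. When arrays were scaled by their 75th percentile, the probes called numbered 58 higher and 35 lower in place of 46 and 59. The other members lay between -0.97 and 0.85, with standard errors of 0.19 to 0.82. At an unadjusted p below 0.05 limma counted 9 members (12.9%, against 14.9% of all probes). All 6 epithelial marker probes lay below 0 here, with 0 called and a median of -0.83, and their part in the values was not tested. The call of DNAJC13 ended when P15 and NP15 were fitted alone, by the methods' t-test after adjustment, and with scan day as a block.

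Named members that missed the test on day 15 fell on both sides of 0. The FK506 binding protein FKBP3, a nuclear prolyl isomerase, was 0.85 higher (SE 0.33, adjusted p = 0.24) and the cyclophilin PPID, an HSP90 partner, 0.67 higher (SE 0.26, adjusted p = 0.24). HSP90AA1 and HSP90AB1, the inducible and constitutive forms of HSP90, had log2 changes of 0.53 and -0.54 (adjusted p = 0.30 and 0.27). The muscle small heat shock protein HSPB6 was lower in P15 (log2 change -0.69, SE 0.20, adjusted p = 0.13), with 2.47 to 3.28 in NP15 and 1.58 to 2.21 in P15.

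On day 18, 4 of the 70 member probes passed the test between pregnant and cyclic cows, 1 higher and 3 lower. That is 5.71% of the members. Of all probes tested, 5.75% were called, 3.65% higher and 2.1% lower. Quantile normalization turned that split, with 405 probes higher and 422 lower in place of 481 and 276, and called 1 member higher and 5 lower. The 3 that fell, both probes of PDIA4 and the probe of FKBP10, belong to the ER. The median over the members was -0.10 against 0.07 over all probes, and 29 of 70 members were above 0 (41.4%, against 55.7% of all probes). At an unadjusted p below 0.05 limma counted 16 members (22.9%, against 24.1% of all probes).

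PDIA4, also known as ERp72, is a protein disulfide isomerase with several thioredoxin-like domains. Its probe ABR1451 read 0.162, 0.394, 0.626 and 0.647 in NP18. In P18 it read 0.127, 0.0942, 0.0367 and 0.104. No P18 array gave a signal well above background, and all 4 NP18 arrays did, without overlap. P18 was at least 3.14-fold lower, taking for each dim array the lowest signal that counted as well above background there if that was higher (log2 change as measured -2.29, SE 0.46, limma adjusted p = 0.0091). The call held when any of the 8 arrays was left out (log2 -2.72 to -1.90), but not with scan day as a block or by the methods' t-test after adjustment. In P18 replicate 1, with the lowest trophoblast sum of P18, the value of 0.127 was below all NP18 arrays. It was not well above background, and the part of trophoblast RNA in the change was not tested.

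The other PDIA4 probe, A_73_106612, was well above background everywhere. It read 3.66, 6.18, 7.41 and 10.1 in NP18 and 3.52, 2.82, 2.68 and 3.57 in P18. All P18 values lay below all NP18 values, by a narrow margin at NP18 replicate 1. The change was -1.04 (SE 0.28, limma adjusted p = 0.041). It held only without NP18 replicate 1, and was lost on leaving out any of the other 7 arrays (log2 between -0.82, without NP18 replicate 4, and -1.31 over the 8 fits). Both probes thus gave the same direction and differed in size.

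FKBP10, or FKBP65, is a prolyl isomerase of the ER that acts on collagen. In NP18 it stood at 19.2, 10.2, 10.8 and 30.0. In P18 it stood at 4.33, 7.28, 7.75 and 4.74. The groups were separate, and the lowest of all arrays was P18 replicate 1. The change was -1.44 (SE 0.37, limma adjusted p = 0.032), and between -1.66 and -1.14 with 1 array left out. Without NP18 replicate 1 or 4, or P18 replicate 1, 2 or 4, the adjusted p rose past the threshold (highest 0.081). SERPINH1, the other collagen chaperone among the members, was not called (log2 change -0.88, SE 0.35, adjusted p = 0.15). Its signals were 64.7, 64.3, 75.9 and 214 in NP18 and 51.7, 52.6, 53.0 and 40.5 in P18, so that NP18 replicate 4 stood far above the rest, and without it the change was -0.47. The stromal marker list, which holds 3 collagen genes, had 1 of 7 probes lower by the test and a median of -0.68, and its part in these values was not tested.

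**Figure D1:**
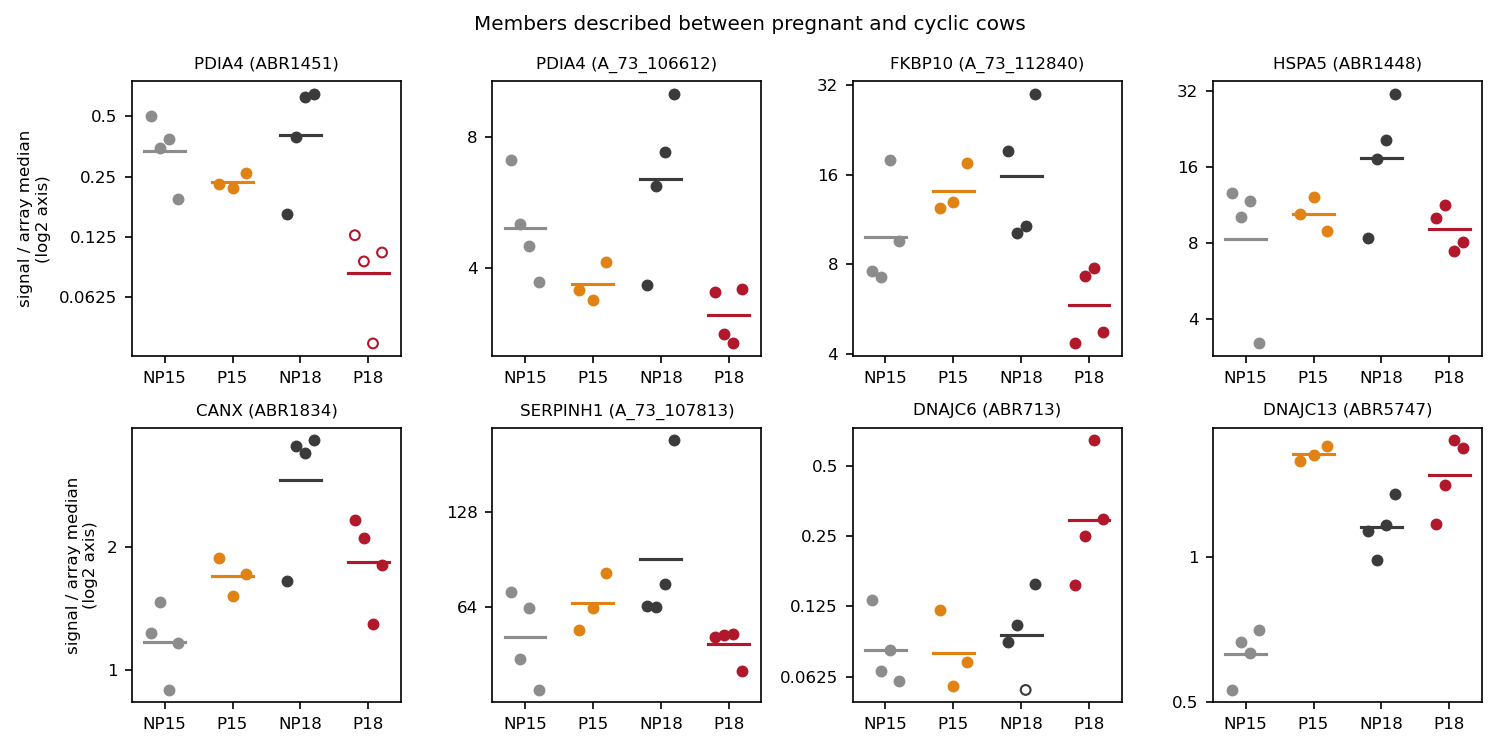
Signals of 8 member probes on each array (signal divided by the array median, log2 axis) for the 4 groups. Points are arrays, open points were not well above background, and lines are the means of the log2 values; all P18 points of both PDIA4 probes, FKBP10 and SERPINH1 lie below all NP18 points, while the highest points of DNAJC6 and DNAJC13 are pregnant cows.

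DNAJC6, or auxilin, which uses HSPA8 to strip clathrin from vesicles, was the member that rose on day 18. It read 0.0880, 0.104, 0.0548 and 0.156 in NP18 and 0.154, 0.249, 0.641 and 0.296 in P18. The lowest P18 array, replicate 1, fell within the NP18 range, and the other 3 lay above it. NP18 replicate 3 was not well above background. The change was 1.64 (SE 0.43, limma adjusted p = 0.035). The 3 high arrays were those with the high trophoblast sums (162, 103 and 765 in replicates 2 to 4). The order differed, as replicate 3, with the lowest of these sums, had the highest DNAJC6 value. Replicate 3 also held the leukocyte sum of 264. The part of trophoblast or leukocyte RNA in the rise was not tested. The call was lost without NP18 replicate 1, 2 or 3 or P18 replicate 2, 3 or 4 (log2 1.26 to 1.94, the lowest without P18 replicate 3). The calls of DNAJC6, FKBP10 and the second PDIA4 probe also ended with slide as a random block, with P18 and NP18 fitted alone and by the methods' t-test after adjustment.

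Members were also laid out by the compartment in which their proteins work, a grouping made after the values had been seen and therefore described without a test. Of the 21 ER probes, 19 were lower in P18 than in NP18, with a median of -0.65. The 6 mitochondrial probes had a median of 0.27, and the 43 cytosolic, nuclear and other probes a median of 0.04, with 20 below 0. Over all probes tested the median was 0.07. The 2 ER probes above 0 were those of DNAJC14 (0.10) and PDIA2 (0.72), the former named after its values were seen. Without NP18 replicate 4, 16 of 21 ER probes were below 0 and the median was -0.24. With any other array left out 18 or 19 were below 0. Under 12 other settings 18 or 19 of 21 were below 0, or 15 of the 16 that were well above background in all arrays, with medians of -0.73 to -0.49.

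Several ER members well known from the unfolded protein response had lower means in P18 but missed the test. HSPA5 (BiP), the HSP70 of the ER, read 8.39, 17.2, 20.4 and 31.0 in NP18 and 10.0, 11.3, 7.47 and 8.06 in P18. NP18 replicate 1 lay among the pregnant cows, and the other 3 cyclic cows above them all. The log2 change was -0.94 (SE 0.43, adjusted p = 0.20).

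Calnexin (CANX), which holds glycoproteins by their sugar chains, read 1.65, 3.54, 3.39 and 3.64 in NP18 and 2.33, 2.10, 1.30 and 1.81 in P18. NP18 replicate 1 again lay among the pregnant cows. Its log2 change was -0.66 (SE 0.28, adjusted p = 0.16). Also below the test were PPIB, the cyclophilin of the collagen hydroxylation complex, at -0.65 (adjusted p = 0.17), and DNAJB11, a BiP partner, at -0.57 (adjusted p = 0.52). DNAJB12, a DnaJ protein of the ER membrane, was not well above background in any P18 array and was at least 1.15-fold lower there than in NP18 (adjusted p = 0.081).

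**Figure D2:**
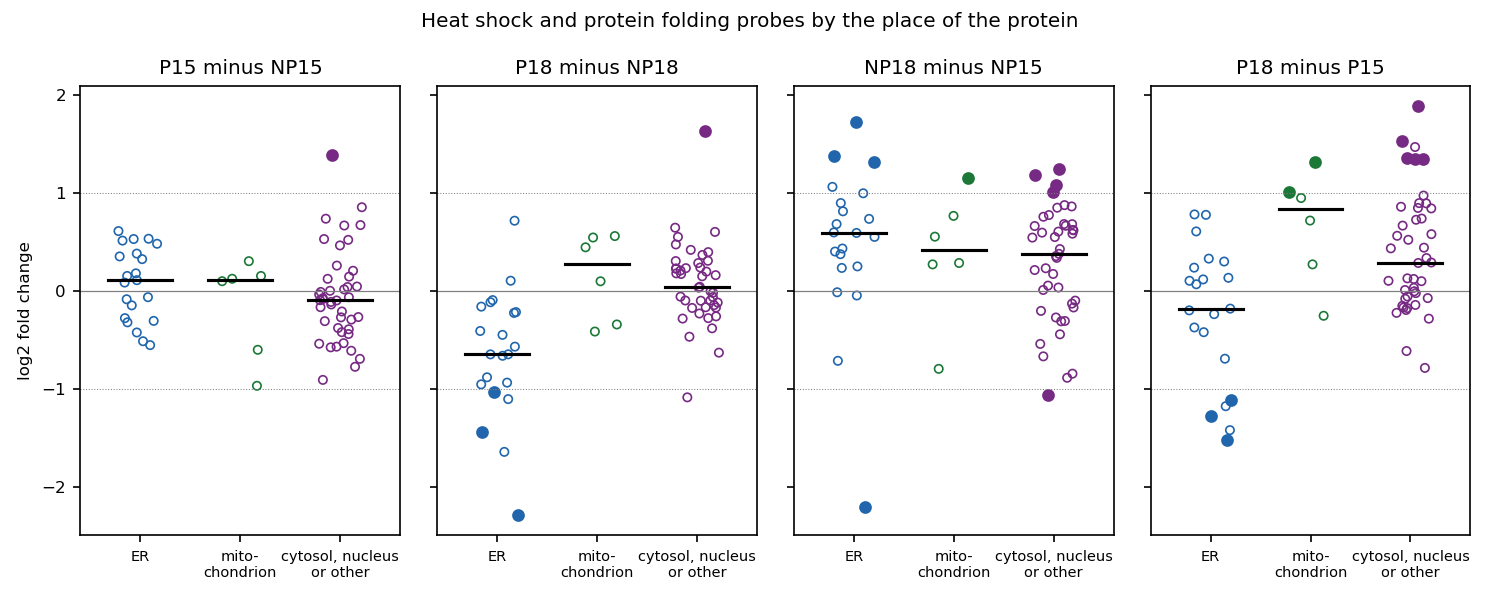
Log2 fold changes (vertical axis) of the 70 member probes in 4 comparisons, split by the compartment of the protein. Filled points passed the test, bars are medians and dotted lines mark a 2-fold change; the ER median is -0.65 between P18 and NP18 and 0.59 between NP18 and NP15.

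In the cytosol, 0 of the 2 HSP90, 6 TRiC/CCT and 3 small heat shock protein probes passed limma's test between pregnant and cyclic cows on day 18, with changes of -0.06 to 0.23, -0.23 to 0.23 and -0.17 to 0.31. DNAJB6, a suppressor of protein aggregation, was 0.60 higher (SE 0.23, adjusted p = 0.13). HSPA9, or mortalin, the HSP70 of the mitochondrial matrix, was 0.56 higher (SE 0.27, adjusted p = 0.22).

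The question of whether pregnancy changed a transcript differently on the 2 days was put by the interaction of day and pregnancy. By this limma test 0 of 70 members were called, while 2.72% of all probes were called, and 15 members had an unadjusted p below 0.05 (21.4%, against 19.3% of all probes). Member interactions lay between -1.96 and 1.67, with a median standard error of 0.41. FKBP10 (-1.96, SE 0.55, adjusted p = 0.066) and DNAJC13 (-1.02, SE 0.27, adjusted p = 0.060) came near the threshold, and PDIA4 (ABR1451) stood at -1.77 (SE 0.68, adjusted p = 0.17). Both FKBP10 and DNAJC13 passed with scaling by the 75th percentile (-2.13 and -1.20), with the authors' table and with quantile normalization. FKBP10 also passed with normexp, DNAJC13 with probes well above background in all arrays, and FKBP10, PDIA4 (ABR1451), CANX, FKBP3 and FKBP14 (the last named after its values were seen) with array weights, all of them below 0. FKBP10 passed without NP15 replicate 3 (-2.25) and CANX without NP18 replicate 1 (-1.47). Whether these interactions passed the test thus depended on the setting.

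Between days 15 and 18 of the cycle, 10 members passed the test, 8 higher and 2 lower on day 18. This is 14.3% of the members, beside 7.16% of all probes, 2.89% as higher and 4.26% as lower. With scaling by the 75th percentile 256 probes were higher and 745 lower in place of 381 and 561, and 5 members were higher and 2 lower. With quantile normalization or normexp 5 members were higher and 0 lower. The median over the members was 0.49 against 0.02 over all probes, and 52 of 70 were above 0 (74.3%, against 51.7%). Those that rose were DNAJB11, DNAJB14, CANX, FKBP3, CCT2, DNAJC19, PPIL6 and DNAJA1, and those that fell were PDIA2 and DNAJB5. Because this comparison and P18 minus NP18 use the same NP18 arrays, an array that stands high in NP18 moves both, in opposite directions.

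NP18 replicate 4 was the highest of all 15 arrays for 33 of 70 members (47.1%, against 17.4% of all probes) and for 14 of 21 ER probes. Without it, 3 members in place of 10 passed the test, beside 4.68% in place of 7.16% of all probes. The median over the ER probes, of which 17 were above 0, was 0.59 with this array and 0.22 without it. NP15 replicate 4 was the lowest array for 17 members, while 12.5% of all probes were lowest there.

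**Figure D3:**
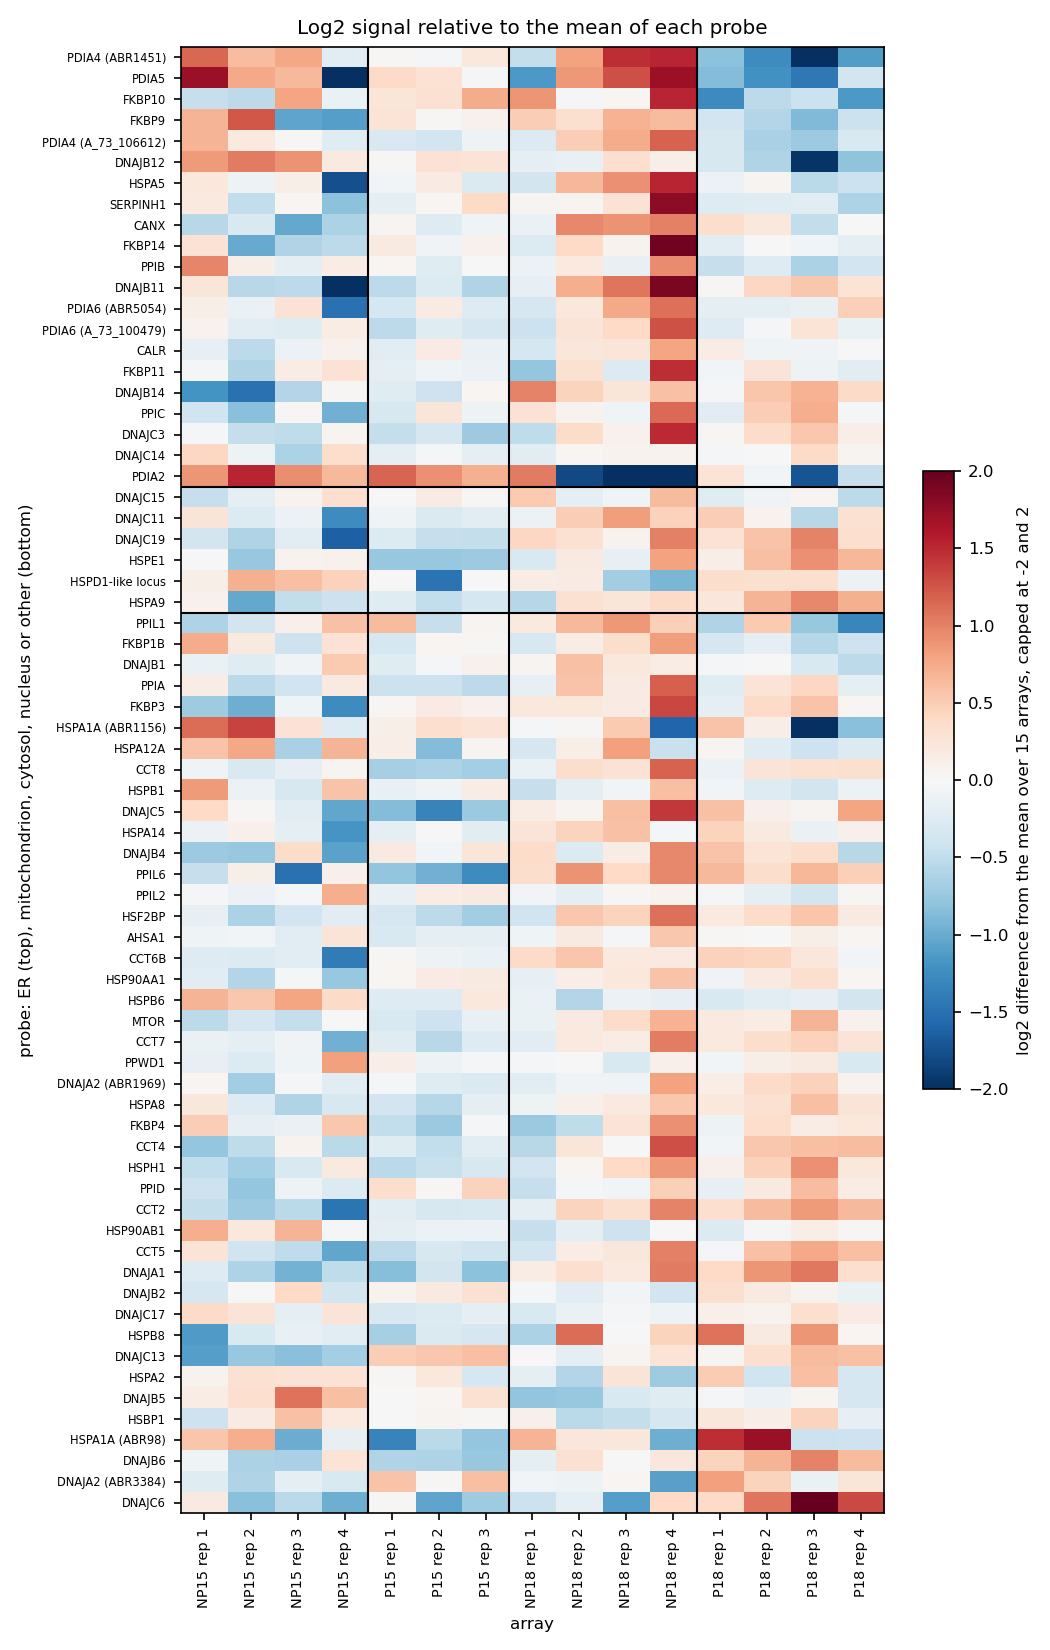
Log2 signal of each of the 70 member probes on each of the 15 arrays (columns) relative to the mean of the probe, ER probes on top, then mitochondrial, then the others, each block ordered by the change between P18 and NP18. Red is above and blue below the mean; NP18 replicate 4 is red in most rows, and the top ER rows are blue in the P18 columns.

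CANX read 1.24, 1.47, 0.896 and 1.16 in NP15, below all NP18 values given above. Its change was 1.31 (SE 0.28, limma adjusted p = 0.010), and it passed the test with any of the 8 arrays left out (log2 1.18 to 1.59), but not with NP18 and NP15 fitted alone, by the methods' t-test after adjustment or with scan day as a block.

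DNAJB14, a DnaJ protein of the ER membrane, read 1.70, 1.38, 2.57 and 3.93 in NP15 and 7.70, 5.26, 4.59 and 5.85 in NP18. The groups did not overlap. It changed by 1.38 (SE 0.30, limma adjusted p = 0.012) and likewise kept its call whichever array was left out and lost it under the same 3 settings as CANX. NP18 replicate 4 was not the highest array for this gene.

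PDIA2, a protein disulfide isomerase best known from pancreas, read 0.224, 0.347, 0.230 and 0.190 in NP15 and 0.247, 0.0346, 0.0301 and 0.0293 in NP18. NP18 replicate 1 was as high as the day 15 cows, and the other 3 were not well above background. The change was -2.20 (SE 0.59, limma adjusted p = 0.030), and it missed the test without NP15 replicate 2 or NP18 replicate 2, 3 or 4. Quantile normalization, normexp and the same settings as for CANX also ended the call. The size of the change rests on the 3 NP18 values not well above background, so it is uncertain, and no bound was computed for it. Without NP18 replicate 1 no NP18 array was well above background, and the size is then only bounded. The other ER probes below 0 in this comparison were those of DNAJB12 (-0.71), PPIB (-0.05) and DNAJC14 (-0.01).

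DNAJB11 rose by 1.73 (SE 0.50, limma adjusted p = 0.040), from 11.2, 6.44, 6.52 and 1.61 in NP15 to 8.43, 15.7, 19.8 and 34.7 in NP18. Its groups overlapped, and it was lost without NP15 replicate 2, 3 or 4 (1.16 without replicate 4) and without NP18 replicate 2, 3 or 4 (1.39 without replicate 4). Scaling by the 75th percentile, the authors' table, quantile normalization, a replicate block and the methods' t-test, adjusted or not, also ended its call. So did fitting NP18 and NP15 alone and scan day as a block. HSPA5, the partner of DNAJB11, was 1.06 higher (SE 0.43, adjusted p = 0.12) and not called.

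CCT2, a subunit of the TRiC/CCT ring, rose by 1.19 (SE 0.27, limma adjusted p = 0.013), and all 6 subunits measured lay above 0, between 0.54 and 1.19. FKBP3 rose by 1.24 (SE 0.30), DNAJC19, which serves protein import into mitochondria, by 1.15 (SE 0.30), and DNAJA1, a general HSP70 partner, by 1.01 (SE 0.25), with limma adjusted p of 0.021, 0.027 and 0.023. Without NP18 replicate 4 these 4 changes were between 0.81 and 0.99 and none passed. CCT2 was also lost without NP15 replicate 4, FKBP3 without NP15 replicate 2, DNAJC19 without NP15 replicate 2 or 4 or NP18 replicate 2, and DNAJA1 without NP15 replicate 2 or 3. The cyclophilin-like PPIL6 rose by 1.08 (SE 0.31, adjusted p = 0.039) at signals of at most 0.104 with 2 of 4 NP18 arrays well above background, and it was lost without NP15 replicate 1 or 3 or NP18 replicate 2, 3 or 4. DNAJB5, a DnaJ protein of the HSP40 type, fell by 1.07 on the log2 scale (SE 0.23, limma adjusted p = 0.011), from 0.174 to 0.334 in NP15 to 0.0904 to 0.133 in NP18. On 3 of 4 NP18 arrays its signal was well above background. Its call was lost without NP15 replicate 3 or NP18 replicate 1 or 2, and with quantile normalization, normexp or array weights. DNAJA1 and PPIL6 were also lost with 75th percentile scaling, the authors' table, quantile normalization, normexp and array weights. DNAJC19 was lost with normexp, array weights and a replicate block. CCT2, FKBP3, DNAJC19, DNAJA1, PPIL6 and DNAJB5 all lost their calls under the same settings as CANX. DNAJC13 (0.88, adjusted p = 0.011), HSPB6 (-0.85, adjusted p = 0.013) and the TRiC/CCT gene CCT6B (0.86, adjusted p = 0.042, named after its values were seen) passed the threshold for p but not that for fold.

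Between pregnant cows of day 15 and day 18, 10 members passed the test as well, 7 higher and 3 lower on day 18. That is 14.3% of the members, beside 11.9% of all probes, 7.58% as higher and 4.31% as lower. This split turned with the scaling: by the 75th percentile 514 probes were higher and 1134 lower in place of 998 and 568, as the median of all probes moved from 0.12 to -0.18. The members called were then 5 higher and 3 lower, and with quantile normalization 3 and 3. The median over the members was 0.13 and that over all probes 0.12. None of the 7 that rose is an ER protein, and the 3 that fell, PDIA4 (ABR1451), FKBP10 and DNAJB12, are ER proteins. The ER probes as a set did not fall, however. Of the 21, 10 were above 0 and 11 below, with a median of -0.18. The 16 ER probes well above background in all arrays had a median of 0.09. Again this grouping was made after the values were seen. Marker lists moved in this comparison as well. The smooth muscle sum was 40.2 to 55.5 in P15 and 9.36 to 34.4 in P18 (3 of 3 probes lower by the test, median -1.88), the stromal sum 1037 to 1149 and 602 to 767 (3 of 7 lower, median -1.02), and the epithelial sum 103 to 137 and 226 to 324 (1 of 6 higher and 1 lower, median 0.99). Their part in the members' changes was not tested.

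DNAJB6 read 21.0, 20.8 and 18.9 in P15 and 43.4, 51.2, 63.8 and 49.4 in P18. DNAJA1 read 41.3, 57.7 and 42.1 in P15 and 97.9, 137, 154 and 94.2 in P18. HSPE1, the HSP10 lid of the mitochondrial chaperonin, read 56.0, 56.5 and 57.7 in P15 and 103, 145, 179 and 150.4 in P18. In all 3 the groups were far apart, with P18 replicate 3 the highest. Their changes were 1.35 (SE 0.25), 1.35 (SE 0.27) and 1.32 (SE 0.29), with limma adjusted p of 0.0041, 0.0072 and 0.010, and each passed with any array left out. Quantile normalization and normexp ended all 3 calls, and scan day as a block did too. In P18 replicate 1, with the lowest trophoblast sum of P18, all 3 were above every P15 array. The part of trophoblast RNA in these changes was not tested.

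DNAJC6 rose by 1.88 (SE 0.46, limma adjusted p = 0.016), from 0.120, 0.0569 and 0.0723 in P15, and was lost without P15 replicate 2 or 3. HSPA9 rose by 1.02 (SE 0.29, limma adjusted p = 0.030), close to the 2-fold limit, and kept its call only without P18 replicate 1 (log2 0.91 to 1.16 over the 7 fits). DNAJC5, the cysteine string protein of secretory vesicles, rose by 1.36 (SE 0.37, limma adjusted p = 0.025) to signals of 0.111 to 0.184, and was lost without any P15 array or P18 replicate 4. Its probe was well above background on 2 of 3 P15 arrays and 3 of 4 P18 arrays. HSPA9 and DNAJC5 also lost their calls under 75th percentile scaling, the authors' table, normexp, a replicate block and scan day as a block. Quantile normalization and array weights ended that of HSPA9 as well. PPIL6 rose by the test (adjusted p = 0.0095), but no P18 array gave a signal well above background for it, so no fold is given.

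Among those that fell, FKBP10 changed by -1.27 (SE 0.40, limma adjusted p = 0.044) and missed the threshold when any 1 of the 7 arrays was left out. PDIA4 (ABR1451), at 0.230, 0.219 and 0.261 in P15, was at least 1.85-fold lower in P18 (adjusted p = 0.0495), and DNAJB12 at least 1.28-fold lower (adjusted p = 0.037). Each of these last 2 kept its call only without P18 replicate 1.

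**Figure D4:**
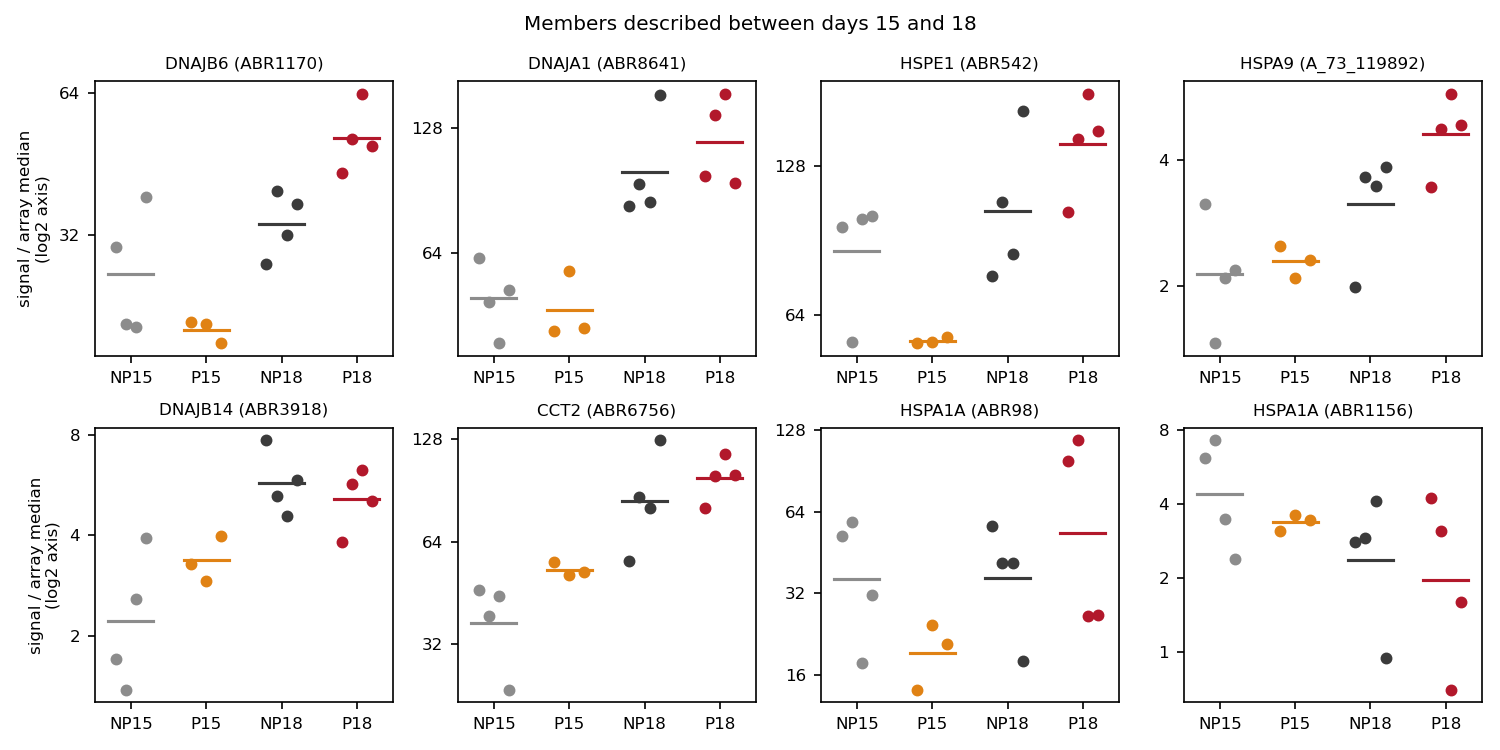
Signals of 8 member probes on each array (signal divided by the array median, log2 axis) for the 4 groups, with lines at the means of the log2 values. DNAJB6, DNAJA1, HSPE1 and HSPA9 are higher in P18 than in P15 without overlap, and the 2 HSPA1A probes in the last panels do not follow each other.

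HSPA1A, the stress-inducible HSP70, was measured by 2 probes that disagreed. ABR98 read 52.1, 58.8, 17.7 and 31.6 in NP15, 14.1, 24.4 and 20.8 in P15, 56.6, 41.5, 41.5 and 18.1 in NP18, and 98.6, 117, 26.4 and 26.7 in P18. ABR1156, the probe printed above, read 6.16, 7.23, 3.48 and 2.39 in NP15, 3.09, 3.59 and 3.45 in P15, 2.81, 2.90, 4.11 and 0.945 in NP18, and 4.22, 3.10, 0.700 and 1.59 in P18. Between P18 and P15 the first was 1.47 higher (adjusted p = 0.094) and the second -0.79 (adjusted p = 0.38) on the log2 scale. Neither was called in any comparison. HSPA1A has a near-identical copy in the genome, HSPA1B, and such probes may read both. The standard errors of these differences, 0.54 to 0.59, were above the members' median of 0.28 to 0.30.

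DNAJA2, PDIA4 and PDIA6 also had 2 probes each. Neither DNAJA2 nor PDIA6 was called by either probe, and the means of both PDIA6 probes were lower in P18 than in NP18, by -0.45 and -0.41 on the log2 scale.

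HSPA8, the constitutive HSP70, was 0.73 higher in P18 than in P15 (SE 0.23, limma adjusted p = 0.045), which passed the threshold for p but not for fold, as did CCT2 (0.89, adjusted p = 0.047) and CCT8 (0.85, adjusted p = 0.040). HSPH1, which reloads HSP70 with ATP, was 0.86 higher (SE 0.30, adjusted p = 0.064). HSP90AB1 was lower in NP18 than in NP15 (log2 change -0.67, SE 0.21, adjusted p = 0.0504), with 183.5 to 310.2 in NP15 and 135 to 187 in NP18.

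Other genes of the heat shock and unfolded protein responses were taken from a list of 95 genes, of which 46 had a probe and 46 probes were tested. On day 15 of pregnancy 0 were called by limma, and on day 18 only 1, the small heat shock protein CRYAB, which was 1.30 higher in P18 (adjusted p = 0.044). All probes were called at 0.798% and 5.75% there. Between NP15 and NP18, 4 rose and 2 fell, 6 of 46 beside 7.16% of all probes. TRIB3, a pseudokinase induced by ER stress, rose by 1.53 (adjusted p = 0.018), with CRELD2, SUGT1 and VBP1, and the 2 that fell were SDF2L1, a BiP complex member, by -1.64 (adjusted p = 0.00067) and PRKCSH, a glucosidase subunit, by -1.07 (adjusted p = 0.0075). Between P15 and P18, 8 probes rose, led by TRIB3 at 2.14 (adjusted p = 0.0042), and 0 fell, 8 of 46 beside 11.9% of all probes in a comparison whose split turned with the scaling as given above. They included XBP1, a transcription factor of the unfolded protein response, at 1.03 (adjusted p = 0.041). In the interaction 2 were called, DERL3 at 1.57 and SDF2L1 at 1.23 (adjusted p = 0.040 and 0.027), beside 2.72% of all probes. The list's median was 0.24 between NP15 and NP18 and 0.38 between P15 and P18, beside 0.02 and 0.12 for all probes. Between pregnant and cyclic cows it was -0.16 on day 15 and -0.04 on day 18, beside -0.06 and 0.07 for all probes.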

How the data were processed

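Total RNA of 15 endometrial samples was labelled with Cy3 and hybridised to one-color Agilent 60-mer arrays. The authors deposited scanner tables from Feature Extraction 9.5 (per the submitters' processing notes), whose processed intensity is background-subtracted and linear, with surrogate values for the dimmest spots, and unscaled between arrays. They also deposited a log2 table of the same arrays, in scale equal to these intensities less a constant per array near their 75th percentile, used as an alternative (column medians -3.19 to -2.72). Its scale and centring are thus known, and values were signed levels, not ratios. Genome build is not given in the sources used here.

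The log2 of each intensity over its array's median (non-control probes, the methods' normalization) was used. Each probe had 1 spot per array. Control spots were left out, and values of spots with outlier flags were set to missing. The fit, by limma 3.58.1 (R 4.3.3), gave each of the 4 groups a mean and shared 1 spread among the 15 arrays. Gene names came from RefSeq (ARS-UCD2.0) by accession or symbol for 62 members and from the file text for 13. Python 3.11.15 (pandas 2.3.3, numpy 2.4.6, matplotlib 3.10.9) gave the other values and plots. The procedure was tested on simulated data.

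The members, lists and compartments were chosen with earlier results of these data known. Named were members called in any comparison, the largest change of each family per pregnancy contrast, and a set of well-known chaperones. A bound uses, per array, the lowest signal well above background. Alternatives were other scalings, normexp (offset 50), the authors' table, filters, array weights, blocks, the groups alone, the methods' t-test, and single arrays left out. Samples of a group came from separate animals by the design text, and precision is limited by the number of arrays.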

Additional observations from a re-analysis of the deposited data

Results flagged for a closer look

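Among 138 groups of 4 arrays (46 named probes in the NP15, NP18 and P18 groups), 14 held a single array that stood apart from its 3 neighbours by Dixon's criterion, which chance alone meets in about 1 of 20 groups. P15, with 3 arrays, was not examined. No explanation was tested.

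In NP18, replicate 1 was low for CANX (1.65, others 3.39 to 3.64) and HSPA9 (1.99, others 3.48 to 3.86) and high for PDIA2 (0.247, others 0.0293 to 0.0346). NP18 replicate 4 was high for FKBP3 (46.2, others 20.5 to 21.3) and SERPINH1 (214, others 64.3 to 75.9). NP18 replicate 2 was low for HSPB6 (1.26, others 1.69 to 1.75).

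In NP15, replicate 4 was low for HSPA5 (3.21, others 10.1 to 12.6) and CCT7 (42.3, others 72.2 to 78.4). NP15 replicate 1 was low for HSPB8 (5.93, others 10.6 to 11.8), and replicate 2 for HSPE1 (56.4, others 96.1 to 101).

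In P18, replicate 1, the array with the lowest trophoblast marker sum of this group, was low for CCT4 (87.5, others 133 to 139) and CCT8 (54.6, others 71.0 to 73.7). P18 replicate 4 was low for SERPINH1 (40.5, others 51.7 to 53.0) and for the HSPD1-like locus (0.0271, others 0.0366 to 0.0374), the latter not well above background on any P18 array.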

How the results depend on the processing

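Counts of members called are given below. With scan day as a random block they were 0 in each comparison, beside 0% to 0.41% of all probes. With only the groups compared in the fit they were 0 for P15 minus NP15 and 2 for P18 minus NP18. For NP18 minus NP15 they were 0 and for P18 minus P15 11. Of all probes, 0.0152%, 3.62%, 1.19% and 15.9% were called. The methods' t-test after adjustment gave 0, 1, 0 and 8 in the same order, beside 0%, 1.43%, 1.04% and 11% of all probes. At an unadjusted p below 0.05 and over 2-fold it gave 1, 6, 9 and 11, beside 3.29%, 8.79%, 8.14% and 16.1%. Array weights gave 2 for P15 minus NP15, 7 for P18 minus NP18 and 5 in the interaction. These are 2.86%, 10% and 7.14% of the members, beside 6.48%, 10.2% and 10.1% of all probes. Quantile normalization gave 5 for NP18 minus NP15, 6 for P18 minus P15, 6 for P18 minus NP18 and 2 in the interaction, and normexp 5, 2, 3 and 1. Of all probes, quantile normalization called 6.94%, 11.9%, 6.28% and 3.52% in these comparisons, and normexp 4.54%, 6.97%, 3.97% and 3.02%. The 75th percentile and the authors' table each gave 2 in the interaction, each beside 2.13% of all probes. Only with probes well above background in all arrays, the counts were 2 for P18 minus NP18, 5 for P18 minus P15 and 1 in the interaction. Of all probes in that fit, 5.67%, 11.7% and 3.77% were called. Slide as a random block gave 1 for P18 minus NP18, beside 4.03% of all probes.

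Replicate numbers are shared by the groups, and the deviations of same-numbered arrays had correlations from -0.26 to 0.30. Arrays with different numbers were not correlated for reference, so these values cannot decide whether the numbers pair the samples. The fit with a replicate block gave 1 for P18 minus NP18 and 6 for P18 minus P15, beside 4.66% and 8.7% of all probes.

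When single arrays were left out, the counts ran from 0 to 1 for P15 minus NP15, 1 to 3 for P18 minus NP18, 0 to 1 in the interaction, 3 to 12 for NP18 minus NP15 and 4 to 9 for P18 minus P15. The shares of all probes called, in the same order, were 0.0304% to 2.61%, 3.25% to 7.92%, 0.448% to 4.17%, 4.68% to 11.9% and 5.6% to 12.5%. No named value changed sign under these settings where it was called or at least 0.5 on the log2 scale in a group well above background. Dim probes, such as those of PPIL6, PDIA2, DNAJB12 and PDIA4 (ABR1451), are limited by signal over background, and P15 by its 3 arrays.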
